A study of Mus musculus with 47 samples.

Results

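The genes described here are the enzymes and transporters of glycolysis and the genes of the cell's response to low oxygen. There are 36 of them among the 22632 genes of the deposited mouse table. They were taken by symbol from lists of the pathway, chosen with earlier results of these data known, and all 36 were found on 1 row each. The 24 glycolysis members import glucose, split it, make and export lactate, or hold back the enzyme that feeds pyruvate into the citric acid cycle. The 12 hypoxia members are oxygen-regulated transcription factor subunits, the hydroxylases that act on them, and genes known as their targets.

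The study sequenced mRNA from 47 mouse libraries, following reprogramming clones before and after doxycycline was withdrawn. The clones grew from secondary mouse embryonic fibroblasts, cells that reprogram when given doxycycline without a new infection. They fall into classes titled SC and SI, names that the labels do not spell out, with 4 clones in each. The factors and the construct that the drug switches on are not named in the labels. Both classes were sampled after 14 days with doxycycline (d14), after 21 days with it (d21), after 21 days with it and 1 day without (d22), after 21 days with it and 2 days without (d23), and after 27 days with it (d27). The 4 SC clones were also taken as secondary iPS cells (induced pluripotent stem cells) after 21 days with the drug and 6 days without. Feeder mouse embryonic fibroblasts, which had 0 days of doxycycline, gave 3 libraries. Each group of clones at a time held n = 4 libraries, 1 per clone, so the p-values below measure only the spread between these clones. Every library is RNA from a whole culture, in which fewer cells of a type and less RNA per cell cannot be told apart.

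Glycolysis turns glucose into pyruvate, which is either burnt in the mitochondrion or reduced to lactate and exported. The hypoxia-inducible factors are pairs of an alpha and a beta subunit. When oxygen is present, prolyl hydroxylases of the Egln family mark the alpha subunit for destruction, and when oxygen is scarce it persists and switches on glycolytic genes together with genes of blood vessel growth, mitophagy and collagen folding. Pluripotent cells in culture are known to rely on glycolysis, and a shift towards it has been described when fibroblasts are reprogrammed.

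Hypoxia-inducible factors bind DNA at the letters ACGTG or GCGTG, read on either strand. The promoters of 4 hypoxia members whose levels moved in different ways are shown, from RefSeq with build GRCm38.p6, as 250 bases before and 50 after the gene's start on its own strand. All 4 genes lie on the minus strand. Capitals mark every match to either motif, also on the opposite strand, where a match reads as CACGT or CACGC. Ankrd37 codes for an ankyrin repeat protein and Egln3 for a prolyl hydroxylase, Bnip3 for a mitophagy receptor and Vegfa for a blood vessel growth factor.
Ankrd37, chr8:45999801-46000100: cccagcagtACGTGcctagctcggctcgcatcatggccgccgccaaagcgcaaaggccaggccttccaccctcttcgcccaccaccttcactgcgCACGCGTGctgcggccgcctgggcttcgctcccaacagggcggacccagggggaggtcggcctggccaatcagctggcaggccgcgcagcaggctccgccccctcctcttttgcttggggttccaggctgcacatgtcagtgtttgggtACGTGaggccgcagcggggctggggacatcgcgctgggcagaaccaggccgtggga
Egln3, chr12:54203825-54204124: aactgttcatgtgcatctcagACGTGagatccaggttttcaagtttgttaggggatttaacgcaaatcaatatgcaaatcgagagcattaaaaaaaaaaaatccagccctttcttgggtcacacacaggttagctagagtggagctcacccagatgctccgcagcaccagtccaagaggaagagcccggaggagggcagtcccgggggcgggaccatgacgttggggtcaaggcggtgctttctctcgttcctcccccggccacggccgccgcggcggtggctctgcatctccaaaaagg
Bnip3, chr7:138909457-138909756: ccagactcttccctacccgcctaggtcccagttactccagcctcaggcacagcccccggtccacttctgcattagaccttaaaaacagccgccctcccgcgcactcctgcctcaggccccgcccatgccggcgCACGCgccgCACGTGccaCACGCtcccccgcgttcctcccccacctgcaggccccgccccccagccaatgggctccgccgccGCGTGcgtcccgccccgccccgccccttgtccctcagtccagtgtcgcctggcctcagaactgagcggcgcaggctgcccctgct
Vegfa, chr17:46032328-46032627: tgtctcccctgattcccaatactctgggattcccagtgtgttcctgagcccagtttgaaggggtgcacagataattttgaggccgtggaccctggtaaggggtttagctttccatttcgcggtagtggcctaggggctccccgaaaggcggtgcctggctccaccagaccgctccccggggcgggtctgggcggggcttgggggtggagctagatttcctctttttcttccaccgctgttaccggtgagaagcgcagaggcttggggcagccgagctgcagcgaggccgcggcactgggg
The Ankrd37 window held 2 matches to ACGTG and 2 to GCGTG, and the 2 GCGTG matches overlap in CACGCGTG. The Bnip3 window held 2 matches to ACGTG, which are the same CACGTG read on both strands, and 3 to GCGTG. The Egln3 window held 1 match to ACGTG and 0 to GCGTG. The Vegfa window shown held 0 of either, and another window listed for Vegfa, chr17:46025114-46025413, held 1 of each. The other members that fell with Vegfa in SC clones from d14 to d21 had matches. The P4ha2 window held 2 matches to ACGTG and 2 to GCGTG, and the P4ha1 window 1 and 2. The Hif1a window held 3 and 0, and the Adm window 0 and 2. Presence of a match thus did not follow the direction of change in these genes. RefSeq windows were matched for 33 of the 36 members, 46 windows in all. The members Slc2a3, Epas1 and Ndufa4l2 were not matched. ACGTG was present in 26 of the 46 windows, against 19.6% of the 32851 windows of all genes, and GCGTG in 29, against 32.4%. Either motif was present in 38 of the 46 windows, against 43.8% of all windows. Some windows of the same gene overlap, as in Eno1 and Aldoa. By gene, 23 of the 33 members had ACGTG in a window and 24 had GCGTG. Genes known as targets of these factors were listed by choice, so these shares are no test. A match describes letters only.

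Levels are in RPKM, the reads of a gene scaled by its length and by the size of the library, which makes genes of unlike length comparable. Depth was estimated at 26.7 to 97.0 megareads in 42 of the 47 libraries, or a whole multiple of this, from the steps between the low values of short genes, so 1 read in a 1 kb gene is worth 0.0103 to 0.0375 RPKM. In the feeders the summed RPKM of 8 pluripotent markers was 0.15 to 0.93, with Dppa4 at 0 in all 3 libraries, and that of 12 fibroblast markers was 6981 to 7494. In iPS cells the pluripotent sum was 857 to 1411 and the fibroblast sum was 762 to 1822. Some libraries stood apart from their group. The d23 library of SC clone 2 had the lowest pluripotent sum of its group, 297, and the highest fibroblast sum, 4471, and the iPS library of the same clone had 857 and 1822. SI clone 3 had the lowest pluripotent sum of its group at d21 (548), d22 (52.0), d23 (8.08) and d27 (694.6). Its fibroblast sum was the highest of its group at d21 (3111), d22 (7337) and d23 (8692). The sum of 6 epithelial markers was lowest in this clone at d21 (68.85), d22 (176), d23 (117) and d27 (46.7). For several comparisons the count of called members is also given without one of these libraries, and the closing section gives ranges for all comparisons. Counts with a library left out come without the share of all genes called in the same fit, so they have no background here.

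Some members share sequence with other genes. In Gapdh, 82.5% of all 50-base windows of the transcript also occur in a transcript of another gene, and 213 of the 222 genes involved are annotated as pseudogenes. The share was 72.2% in Eno1, 68.0% in Pgk1, 62.4% in Bnip3, 41.5% in Pgam1, 27.0% in Ldhb and 25.3% in Gpi1. Levels of these genes are uncertain if such reads were dropped or split in the deposited values. Gapdh, the glyceraldehyde phosphate dehydrogenase and usually among the most abundant transcripts of a cell, was listed at only 3.53 ± 0.342 RPKM in SC d21 (mean ± SD, n = 4).

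Across the 12 groups the mean level of the members was highest in SC clones 2 days after withdrawal, though not in every clone. The mean of log2(RPKM + 1) over the 24 glycolysis members, as mean ± SD over libraries, was 4.26 ± 0.07 at d14, 4.86 ± 0.14 at d21, 4.55 ± 0.21 at d22, 5.08 ± 0.43 at d23 and 4.51 ± 0.12 at d27 in SC clones. In SI clones it was 4.28 ± 0.13 at d14, 4.80 ± 0.37 at d21, 4.20 ± 0.13 at d22, 4.25 ± 0.14 at d23 and 4.26 ± 0.04 at d27. It was 4.76 ± 0.32 in SC iPS cells and 4.01 ± 0.04 in feeders. In both classes the d21 mean lay above those of d14 and d22. After d22 the SC mean lay above its d21 level at d23, and the SI mean did not. SC clone 2 went against its class, from 4.91 at d21 to 4.51 at d23. By the unpaired test given below, no member was called in SC at d23 relative to d21. The 12 hypoxia members had a mean of 3.99 ± 0.20 at d14, 4.22 ± 0.17 at d21, 3.89 ± 0.22 at d22, 4.47 ± 0.23 at d23 and 3.68 ± 0.10 at d27 in SC clones. The SI values were 3.79 ± 0.33, 4.25 ± 0.34, 4.02 ± 0.05, 4.20 ± 0.08 and 3.42 ± 0.07 at the same times. SC iPS cells were at 3.99 ± 0.17 and feeders at 4.13 ± 0.08. Here too SC clone 2 was lower at d23 (4.23) than at d21 (4.36). Behind these means the hypoxia members went both ways between iPS cells and feeders.

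**Figure D1:**
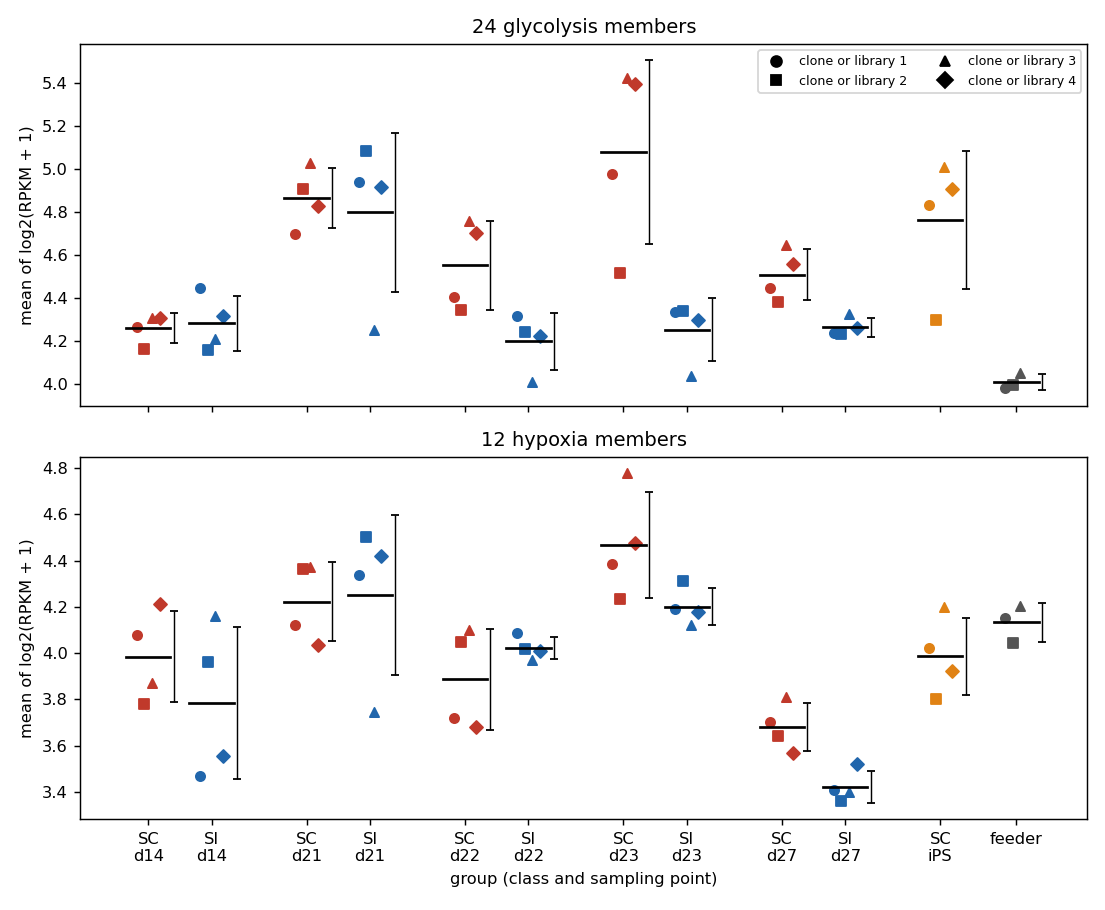
Mean log2(RPKM + 1) over the 24 glycolysis members and the 12 hypoxia members in each of the 47 libraries (points), by group along the horizontal axis, with the group mean as a bar and its SD over clones as an error bar. The glycolysis mean of SC clones is 5.08 at d23, against 4.25 in SI clones.

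SC d23 held the highest group mean of 15 members, and SI d22 the lowest of 12. Feeders had the highest level of 6 members and the lowest of 7. The widest range of group means belonged to Slc2a3, a high-affinity glucose transporter, at 168.7 RPKM in SI d22 against 0.613 RPKM in feeders, a distance of 6.48 on the log2 scale. Aldoc, an aldolase typical of brain, spanned 3.02, Ldhb, a lactate dehydrogenase subunit, 2.71, Epas1, a HIF alpha subunit, 2.70, and Ndufa4l2, a mitochondrial protein that dampens respiratory complex I, 2.68. Pdk3, an inhibitory kinase of pyruvate dehydrogenase, moved least, at 0.43. The members thus did not move as 1 block, as the heat map of group means shows.

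**Figure D2:**
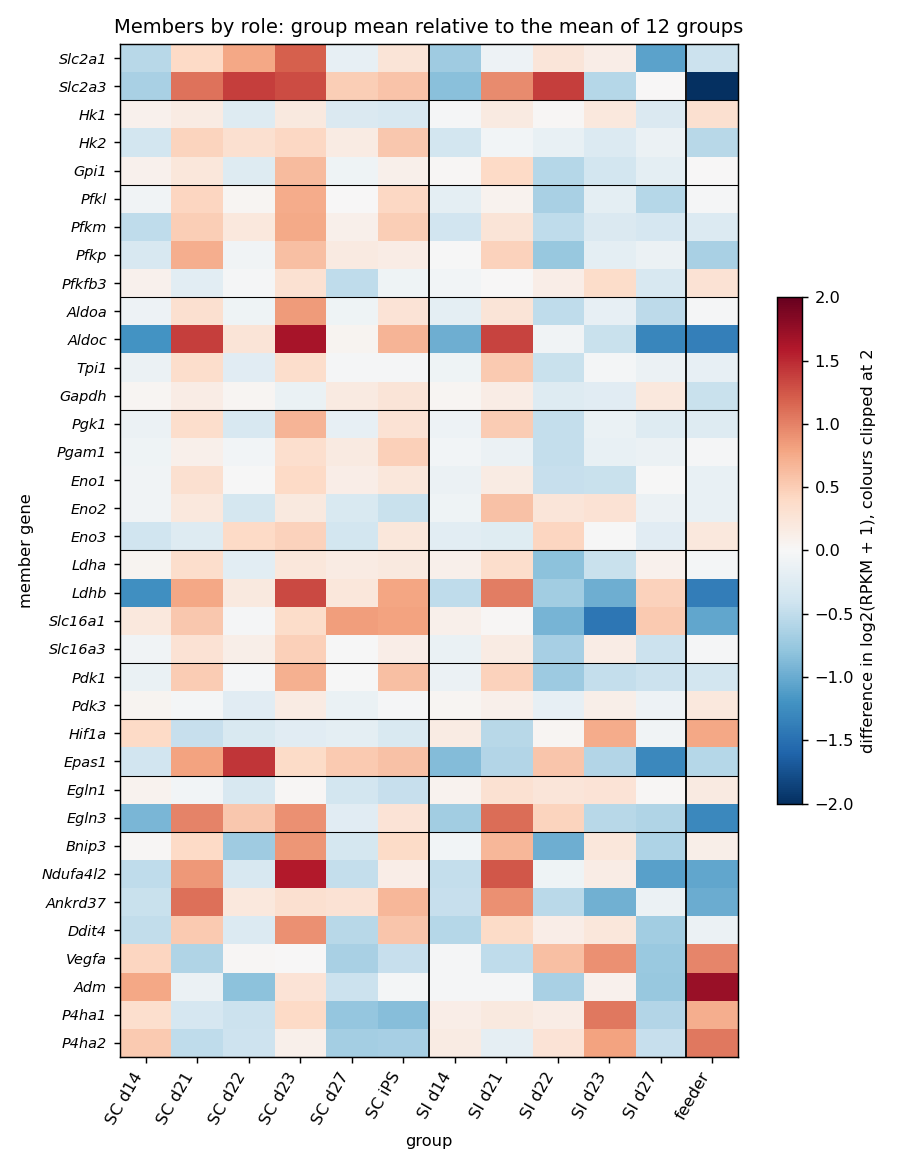
Group mean of log2(RPKM + 1) of each of the 36 members (rows, in order of role) in the 12 groups (columns), as the difference from the mean of the 12 groups, with colours clipped at a difference of 2. SC d23 holds the highest group mean of 15 members, while Vegfa, Hif1a, P4ha1 and P4ha2 are high in SI d23 and feeders.

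The levels of 12 members, chosen to be followed through all groups, show this in RPKM, as mean ± SD over libraries. Slc2a1, the basal glucose transporter, averaged 70.03 ± 6.09, 138 ± 26.96, 178 ± 41.02, 259 ± 122 and 94.6 ± 27.5 RPKM in SC clones at d14, d21, d22, d23 and d27, 62.6 ± 4.22, 102 ± 35.6, 128 ± 43.4, 119 ± 41.1 and 48.5 ± 2.58 RPKM in SI clones at the same times, 133 ± 57.03 RPKM in SC iPS cells and 76.2 ± 1.37 RPKM in feeders. Slc2a3 averaged 36.6 ± 13, 118 ± 22.2, 150.5 ± 53.6, 149 ± 69.3 and 77.5 ± 11.8 RPKM in SC clones at d14, d21, d22, d23 and d27, 35.2 ± 22.4, 116 ± 55.5, 169 ± 91.7, 51.5 ± 36.7 and 55.4 ± 8.14 RPKM in SI clones at the same times, 86.6 ± 31.1 RPKM in SC iPS cells and 0.613 ± 0.0322 RPKM in feeders. Slc2a1 was present everywhere and highest on average in SC d23, while Slc2a3 was nearly absent in feeders and highest in SI d22. Hk2, an inducible hexokinase, averaged 19.4 ± 2.02, 35.1 ± 3.37, 32.1 ± 3.56, 34.8 ± 8.05 and 28.7 ± 4.08 RPKM in SC clones at d14, d21, d22, d23 and d27, 19.6 ± 3.82, 24.5 ± 3.23, 23.1 ± 5.23, 21.1 ± 3.75 and 23.2 ± 1.34 RPKM in SI clones at the same times, 38.1 ± 8.28 RPKM in SC iPS cells and 16.9 ± 0.571 RPKM in feeders. Pfkfb3, which makes an activator of phosphofructokinase, averaged 6.19 ± 0.996, 4.88 ± 1.24, 5.68 ± 0.904, 7.68 ± 3.28 and 3.74 ± 0.280 RPKM in SC clones at d14, d21, d22, d23 and d27, 5.58 ± 1.36, 5.76 ± 0.864, 6.45 ± 1.18, 7.76 ± 1.73 and 4.38 ± 0.320 RPKM in SI clones at the same times, 5.46 ± 1.34 RPKM in SC iPS cells and 7.22 ± 0.450 RPKM in feeders. Hk2 had its highest mean in SC iPS cells, and the means of Pfkfb3 ran from 3.74 RPKM in SC d27 to 7.76 RPKM in SI d23.

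The subunits of lactate dehydrogenase differed in span. Ldha, which favours making lactate, averaged 208 ± 22.8, 254 ± 12.1, 176 ± 48.6, 238 ± 57.2 and 223 ± 21.6 RPKM in SC clones at d14, d21, d22, d23 and d27, 213 ± 21.7, 258 ± 48.6, 113 ± 6.64, 146 ± 14.7 and 212 ± 12.7 RPKM in SI clones at the same times, 231 ± 46.1 RPKM in SC iPS cells and 193 ± 7.40 RPKM in feeders. Ldhb, which favours its use, averaged 9.81 ± 2.51, 42.8 ± 15.99, 28.4 ± 9.26, 76.2 ± 49.99 and 27.98 ± 3.16 RPKM in SC clones at d14, d21, d22, d23 and d27, 18.4 ± 11.1, 52.99 ± 20.9, 14.7 ± 4.19, 11.6 ± 1.76 and 32.9 ± 1.28 RPKM in SI clones at the same times, 45.4 ± 18.5 RPKM in SC iPS cells and 8.47 ± 0.634 RPKM in feeders. Ldha was abundant in every group, and Ldhb had its highest mean in SC d23. Pdk1, a kinase that holds back pyruvate dehydrogenase, averaged 5.78 ± 0.363, 9.57 ± 1.08, 6.60 ± 2.50, 11.8 ± 4.43 and 6.34 ± 0.652 RPKM in SC clones at d14, d21, d22, d23 and d27, 5.92 ± 1.47, 9.72 ± 3.47, 3.46 ± 0.141, 4.33 ± 0.262 and 4.54 ± 0.474 RPKM in SI clones at the same times, 10.5 ± 2.59 RPKM in SC iPS cells and 4.74 ± 0.615 RPKM in feeders. Its highest mean was in SC d23 too.

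Of the HIF alpha subunits, Hif1a averaged 53.7 ± 9.44, 28.9 ± 2.995, 32.2 ± 4.32, 35.8 ± 14.5 and 34.8 ± 3.15 RPKM in SC clones at d14, d21, d22, d23 and d27, 46.7 ± 15.5, 28.7 ± 12.7, 42.1 ± 11, 68.6 ± 13.7 and 38.02 ± 2.48 RPKM in SI clones at the same times, 33.3 ± 10.3 RPKM in SC iPS cells and 68.9 ± 6.94 RPKM in feeders. Epas1 averaged 4.16 ± 1.03, 11.1 ± 4.12, 17.4 ± 4.68, 7.83 ± 2.16 and 8.85 ± 2.78 RPKM in SC clones at d14, d21, d22, d23 and d27, 3.02 ± 2.09, 3.45 ± 0.530, 9.11 ± 2.97, 3.46 ± 0.439 and 1.76 ± 0.474 RPKM in SI clones at the same times, 9.01 ± 0.952 RPKM in SC iPS cells and 3.50 ± 0.295 RPKM in feeders. Hif1a was the more abundant subunit in every group, with its highest means in feeders and SI d23, and Epas1 had its highest mean in SC d22. Egln3, a hydroxylase that is itself a HIF target, averaged 8.84 ± 0.905, 38.5 ± 16.2, 30.8 ± 19.4, 36.1 ± 15.2 and 15.8 ± 5.88 RPKM in SC clones at d14, d21, d22, d23 and d27, 10.8 ± 2.93, 48.2 ± 26.1, 29.3 ± 16.2, 12.4 ± 5.01 and 11.3 ± 1.24 RPKM in SI clones at the same times, 23.6 ± 10.6 RPKM in SC iPS cells and 6.63 ± 0.587 RPKM in feeders. Bnip3 averaged 15.9 ± 3.55, 20.9 ± 4.85, 9.22 ± 2.70, 30.3 ± 9.84 and 11.8 ± 1.10 RPKM in SC clones at d14, d21, d22, d23 and d27, 14.8 ± 2.10, 27.4 ± 12.5, 7.35 ± 0.876, 17.97 ± 0.988 and 9.72 ± 1.40 RPKM in SI clones at the same times, 20.3 ± 2.70 RPKM in SC iPS cells and 16.9 ± 3.04 RPKM in feeders. Vegfa averaged 27.5 ± 5.56, 12.9 ± 1.33, 20.8 ± 5.30, 20.4 ± 4.81 and 12.5 ± 1.71 RPKM in SC clones at d14, d21, d22, d23 and d27, 21.5 ± 9.76, 13.8 ± 1.35, 31.1 ± 4.75, 39.02 ± 7.66 and 11.6 ± 1.55 RPKM in SI clones at the same times, 14.5 ± 3.60 RPKM in SC iPS cells and 40.4 ± 0.760 RPKM in feeders. Egln3 had its highest mean in SI d21, Bnip3 in SC d23 and Vegfa in feeders.

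Between d14 and d21, with doxycycline present throughout, SC clones gained glycolytic transcripts and gained and lost hypoxia genes in equal number. Of 36 members, 19 rose and 5 fell at d21 relative to d14, where 42.5% of 11806 genes were called in all, 22.0% higher and 20.6% lower. Calls are limma tests on log2(RPKM + 1) with p-values adjusted over all genes tested and a threshold of 0.05, and fold changes on this scale understate the change of low genes. The rises took 14 of the 24 glycolysis members, with no fall, and 5 of the 12 hypoxia members, with 5 falls. The median change was 0.38 over the members and 0.06 over all genes.

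Among the glucose-handling members, Hk2, the inducible hexokinase that traps glucose inside the cell, had 30.4, 36.4, 35.2 and 38.3 RPKM in SC d21 clones 1 to 4, against 16.9, 20.99, 21.1 and 18.5 RPKM in SC d14. Every d21 library lay above every d14 library, and Hk2 rose by 0.82 ± 0.11 (log2, SE; limma adjusted p = 0.000700). Pfkm, the muscle type of phosphofructokinase, had 13.5, 17.5, 19.7 and 18.8 RPKM in SC d21 and 8.75, 7, 7.49 and 9.74 RPKM in SC d14. The groups did not overlap, with a rise of 0.99 ± 0.14 (limma adjusted p = 0.000918). Aldoc had 3.46, 11.2, 15.8 and 7.39 RPKM in SC d21, against 0.46, 0.69, 0.65 and 0.50 RPKM in SC d14, where all 4 clones were below 1 RPKM. It rose by 2.57 ± 0.34 (limma adjusted p = 0.000672), more than any other member in this comparison. A gene was tested only if enough libraries reached 1 RPKM, and Aldoc did so only through its d21 libraries. Its p-value therefore gives no support, though Aldoc is counted among the rises above. Ldhb, the subunit of lactate dehydrogenase that favours lactate use, had 31.6, 39.3, 66.3 and 34.02 RPKM in SC d21 and 10.95, 7.70, 12.8 and 7.77 RPKM in SC d14. Its lowest d21 library exceeded its highest d14 library, and it rose by 1.98 ± 0.24 (limma adjusted p = 0.000504). The glucose transporters Slc2a1 and Slc2a3 rose by 0.95 ± 0.14 and 1.72 ± 0.28. Pdk1, which inhibits pyruvate dehydrogenase, rose by 0.64 ± 0.10. Ldha, the subunit that favours lactate production, differed by 0.30 ± 0.11 and was not called (limma adjusted p = 0.0567).

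Among the hypoxia members, Ankrd37 had 8.06, 7.92, 7.64 and 7.28 RPKM in SC d21, against 2.26, 1.79, 2.14 and 1.78 RPKM in SC d14. The 4 clones were close to each other at both times and the groups did not overlap. Its rise of 1.55 ± 0.10 had the smallest p of any member (limma adjusted p = 0.000117). Vegfa had 12.1, 11.8, 13.1 and 14.7 RPKM in SC d21, against 30.5, 23.2, 22.4 and 33.8 RPKM in SC d14. It was lower in each d21 library than in any d14 library, a fall (-1.02 ± 0.15, limma adjusted p = 0.000922). Egln3 rose by 1.90 ± 0.28 and Ndufa4l2 by 1.38 ± 0.28, and Ddit4, an inhibitor of mTOR signalling, rose by 1.03 ± 0.22. The HIF alpha subunits parted: Epas1 rose by 1.19 ± 0.23 while Hif1a changed by -0.86 ± 0.14, a fall. Adm, the vasodilator peptide adrenomedullin, changed by -0.88 ± 0.19, and the collagen prolyl hydroxylase subunits P4ha2 and P4ha1 by -1.03 ± 0.20 and -0.66 ± 0.21, all falls. With clones paired P4ha1 was no longer called (limma adjusted p = 0.0545).

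Markers of cell type moved in the same comparison. Of 8 pluripotent markers 5 of 7 tested rose and none fell, of 12 fibroblast markers 10 fell and none rose, and all 8 proliferation markers rose. The summed fibroblast RPKM was 1290 to 1542 in SC d21 and 2632 to 5107 in SC d14, and the proliferation sum was 331 to 471 in SC d21 and 120 to 192 in SC d14 with no overlap. Among 6 macrophage markers 4 of 5 tested fell. No marker of these lists was at 0 in all libraries of either group. The part of these cell types in the change of the members was not tested.

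In SI clones no member was called at d21 relative to d14, where 0.00% of genes were called, although 21 of 24 glycolysis members had a difference above 0. By limma at an unadjusted p under 0.05 there were 11 members, where 19.7% of genes were. The fit with clones paired called 0, where 0.0767% of genes were called, and 1 fit over all 47 libraries called 12 higher and 1 lower, where 18.8% were. The fit over all libraries has no term for the clone, so it counts repeated libraries of a clone as independent. The count of the unpaired test changed when 1 library was left out. Without the d21 library of SI clone 3, 18 members were called, a count without the share of all genes beside it. That library had 0.46 RPKM of Aldoc, 10.1 of Egln3 and 3.92 of Ndufa4l2. The other 3 SI d21 libraries had 11.4 to 20.5 RPKM of Aldoc, 53.1 to 67.4 of Egln3 and 15.7 to 25.6 of Ndufa4l2. Ankrd37 had 6.89, 11.7, 2.05 and 9.98 RPKM in SI d21, against 2.81, 1.46, 1.54 and 2.24 RPKM in SI d14, so that clone 3 alone lay within the d14 range. The median member difference was 0.30, against 0.05 over all genes. The SI d14 libraries were unlike each other as well. Their fibroblast sums were 1714, 5404, 4896 and 1763 RPKM in clones 1 to 4, and their pluripotent sums 871.5, 307, 323.3 and 951.7 RPKM. No cell type marker was called in this comparison, and the part of these cell types was not tested.

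After 1 day without doxycycline, the members that passed the test were mostly lower than at d21, in both classes. This day and the step that follows were compared after the values had been seen. In SI clones 3 members rose and 16 fell at d22 relative to d21, where 37.9% of genes were called. Of the 24 glycolysis members 14 fell and 1 rose. The median was -0.62 over the members and -0.02 over all genes. In SC clones 4 members fell at d22 relative to d21 and none rose, where 8.17% of genes were called, and with clones paired 19 fell and 4 rose, where 37.3% were called. The SC count was 0 when any 1 of the d21 libraries of clones 1, 2 and 3 or the d22 libraries of clones 1 and 2 was left out, and 2 without the d22 library of clone 3. Whether the first-day changes differ between the classes was not tested. The d22, d23 and d27 comparisons of a class share its d21 libraries.

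Ldha had 107, 110.04, 122 and 111 RPKM in SI d22, against 224, 323, 218 and 267 RPKM in SI d21. All 4 clones were lower at d22 than any at d21, and Ldha fell (-1.17 ± 0.15, limma adjusted p = 0.00101). Gpi1, the isomerase of glucose phosphate, had 22.02, 20.5, 23.3 and 22.4 RPKM in SI d22 and 52.2, 48.2, 31.4 and 47.8 RPKM in SI d21. It fell without overlap (-0.97 ± 0.16, limma adjusted p = 0.00292). Slc16a1, a lactate and monocarboxylate transporter, had 8.31, 8.04, 7.30 and 8.20 RPKM in SI d22, against 12.2, 14.8, 20.2 and 19.02 RPKM in SI d21, and fell by 0.95 ± 0.16. Its d22 values were within about 1 RPKM of each other and all lay under the d21 values. Pfkp, the platelet type of phosphofructokinase, had 7.73, 7.58, 7.37 and 6.74 RPKM in SI d22 and 25.9, 19.6, 10.7 and 20.95 RPKM in SI d21, with no overlap (-1.22 ± 0.23, limma adjusted p = 0.00481). The lactate dehydrogenase subunit Ldhb fell as well. Ldhb had 16.6, 16.6, 8.42 and 17.1 RPKM in SI d22, against 63.9, 72.6, 24.7 and 50.8 RPKM in SI d21, with no overlap (-1.73 ± 0.35, limma adjusted p = 0.00633).

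Vegfa moved the other way: it had 25.4, 30.6, 37.03 and 31.4 RPKM in SI d22, against 12.9, 12.7, 14.04 and 15.6 RPKM in SI d21. The groups were well apart and Vegfa rose (1.11 ± 0.13, limma adjusted p = 0.000913). Epas1 rose as well (1.14 ± 0.23), as did Eno3, the muscle enolase (0.66 ± 0.15). Bnip3, which targets mitochondria for removal and shares sequence with other genes as given above, fell in both classes. It had 7.98, 6.09, 7.91 and 7.41 RPKM in SI d22, against 23.8, 38.1, 11.2 and 36.3 RPKM in SI d21. Every SI clone was below 8 RPKM after a day without the drug, under each d21 value (-1.63 ± 0.34, limma adjusted p = 0.00701). In SC clones Bnip3 had 7.13, 8.06, 13.2 and 8.51 RPKM at d22, against 17.9, 26.3, 23.6 and 15.9 RPKM at d21, again without overlap (-1.11 ± 0.22, limma adjusted p = 0.0278). The other SC calls were falls too, in Pgk1, a phosphoglycerate kinase, Tpi1, the triose phosphate isomerase, and Adm, which codes for a vasoactive peptide. Pgk1 had 17.5, 15.5, 21.9 and 21.7 RPKM in SC d22, against 27.04, 35.04, 35.7 and 26.1 RPKM in SC d21, with no overlap (-0.67 ± 0.16, limma adjusted p = 0.0428). Tpi1 had 122, 115, 136 and 129.6 RPKM in SC d22, against 179.8, 222, 199 and 154 RPKM in SC d21, with no overlap (-0.57 ± 0.14, limma adjusted p = 0.0439). Adm had 6.04, 4.80, 6.34 and 5.22 RPKM in SC d22, against 7.22, 10.5, 13.2 and 8.87 RPKM in SC d21, with no overlap (-0.71 ± 0.18, limma adjusted p = 0.0461).

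Fibroblast markers summed to 2949 to 7337 RPKM in SI d22, against 1307 to 3111 in SI d21, and to 1567 to 3078 in SC d22, against 1290 to 1542 in SC d21. Proliferation markers summed to 67.2 to 165 RPKM in SI d22 and 239 to 274 in SI d21, and to 232 to 462 in SC d22 and 331 to 471 in SC d21. The pluripotent sum was 52.0 to 257 RPKM in SI d22 and 548 to 1304 in SI d21, with 1 of 5 tested markers higher and 1 lower, and 306.5 to 1257 in SC d22 and 1246 to 1527 in SC d21. In SI 6 of 12 fibroblast, 4 of 5 tested macrophage and 3 of 6 epithelial markers rose and 6 of 8 proliferation markers fell. The macrophage sum was 144 to 374.5 RPKM in SI d22 and 53.0 to 119.9 in SI d21, and the epithelial sum 176 to 1199 in SI d22 and 68.8 to 411 in SI d21. In SC 1 fibroblast, 1 epithelial and 1 macrophage marker rose and 1 pluripotent marker fell, and 1 endothelial marker fell in each class. Their part in the changes of the members was not tested.

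Between the first and the second day without the drug, Bnip3 was higher again in both classes. In SI clones it had 17.99, 17.98, 16.7 and 19.2 RPKM at d23, against the values under 8 RPKM at d22, and rose by 1.19 ± 0.10 (limma adjusted p = 0.0149) with no overlap. Altogether 4 members rose and 1 fell in SI at d23 relative to d22, where 1.74% of genes were called. With libraries rescaled by the median ratio it was 6 and 2, and calls over all genes went to 134 higher and 137 lower, against 75 and 128 as deposited. With clones paired 17 members rose and 7 fell, where 44.2% of genes were called. The others that rose were P4ha1, a collagen prolyl hydroxylase subunit, Slc16a3, a lactate exporter, and Pfkp. P4ha1 had 80.9, 90.5, 101 and 79.3 RPKM in SI d23, against 42.1, 42.7, 62.9 and 40.7 RPKM in SI d22, with no overlap (0.90 ± 0.15, limma adjusted p = 0.0366). Slc16a3 had 29.4, 39.2, 24.9 and 31.9 RPKM in SI d23, against 18.3, 16.8, 18.6 and 15.4 RPKM in SI d22, with no overlap (0.81 ± 0.14, limma adjusted p = 0.0358). Pfkp had 11.5, 12.4, 9.84 and 11.7 RPKM in SI d23, against 7.73, 7.58, 7.37 and 6.74 RPKM in SI d22, with no overlap (0.56 ± 0.09, limma adjusted p = 0.0344). Slc16a1 fell further (-0.51 ± 0.09). The SI count rested on single libraries: it was 0 without the d22 library of clone 1 or 4 or the d23 library of clone 1, 2 or 4, 1 without the d22 library of clone 2, and 19 without the d22 library of clone 3. No cell type marker was called in SI at d23 relative to d22 by limma. With clones paired 8 of 12 fibroblast markers rose and 2 fell, all 8 proliferation markers fell, and so did 3 of 4 tested pluripotent and 1 of 5 tested macrophage markers, while 1 of 6 epithelial markers rose. The part of these cell types was not tested.

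In SC clones no member was called at d23 relative to d22, where 0.00% of genes were called, with 15 members at an unadjusted limma p under 0.05, as were 14.1% of genes. One fit over all 47 libraries called 14 higher and 1 lower, where 11.3% of genes were called. With clones paired 18 members were higher and 1 lower, where 13.0% of genes were called. Bnip3 had 28.2, 17.6, 40.4 and 35.02 RPKM in SC d23, against 7.13, 8.06, 13.2 and 8.51 RPKM in SC d22. All 4 SC clones were higher at d23 than any at d22 (paired 1.59 ± 0.16, limma adjusted p = 0.00930). Ndufa4l2 had 14.02, 7.87, 28.5 and 30.6 RPKM in SC d23, against 2.11, 4.25, 6.48 and 4.15 RPKM in SC d22. Each d23 library again exceeded each d22 library (paired 1.91 ± 0.28, limma adjusted p = 0.0184). Adm, Pgk1 and Ddit4 were higher as well, and Epas1 was the 1 lower member. Adm had 11.7, 10.2, 21.2 and 11.4 RPKM in SC d23, against 6.04, 4.80, 6.34 and 5.22 RPKM in SC d22, with no overlap (paired 1.10 ± 0.14, limma adjusted p = 0.0152). Pgk1 had 39.1, 21.5, 50.3 and 52.7 RPKM in SC d23, against 17.5, 15.5, 21.9 and 21.7 RPKM in SC d22, with overlap (paired 0.99 ± 0.15, limma adjusted p = 0.0184). Ddit4 had 74.1, 62.6, 147 and 105 RPKM in SC d23, against 33.5, 42.3, 51.3 and 34.3 RPKM in SC d22, with no overlap (paired 1.19 ± 0.18, limma adjusted p = 0.0184). Epas1 had 6.11, 6.23, 8.27 and 10.7 RPKM in SC d23, against 10.7, 18.1, 18.8 and 21.7 RPKM in SC d22, with no overlap (paired -1.04 ± 0.13, limma adjusted p = 0.0152). Without the d23 library of SC clone 2 the unpaired test called 3 members. No cell type marker was called in SC by the unpaired limma test, and with clones paired 4 of 8 pluripotent and 1 of 2 tested endothelial markers were higher and 3 of 12 fibroblast and 1 of 5 tested macrophage markers lower. Their part was not tested.

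**Figure D3:**
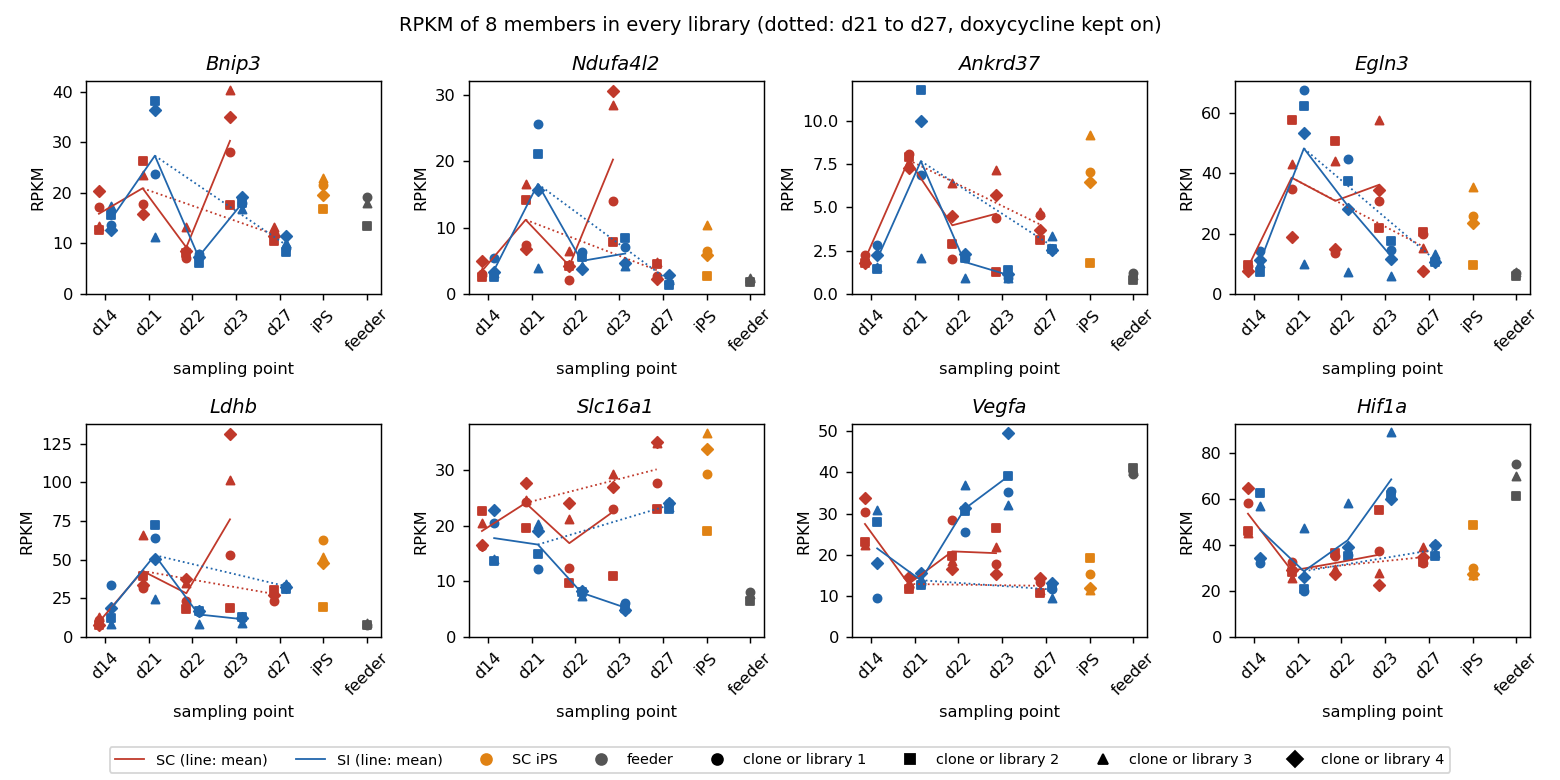
RPKM of 8 members in every library, with sampling points along each horizontal axis and the clone number as the marker shape; solid lines join group means from d14 to d23 and dotted lines join d21 to d27. Bnip3 dips at d22 in both classes, while Slc16a1 in SI clones ends near 5 RPKM at d23.

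Over both days 10 glycolysis members fell in SI clones, and 4 hypoxia members rose. At d23 relative to d21, 4 members rose and 12 fell in SI, where 54.6% of 11796 genes were called, 22.7% higher and 32.0% lower. The members' share was not above this background. Of the 24 glycolysis members none rose and 14 were not called, and 2 of the 12 hypoxia members fell. The median was -0.34 over the members and -0.12 over all genes. Rescaling by the median ratio moved the median of all genes to -0.06 and left 5 members higher and 8 lower.

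At the lactate end of the pathway, Slc16a1 had 6.07, 5.15, 5.14 and 4.81 RPKM in SI d23, against 12.2, 14.8, 20.2 and 19.02 RPKM in SI d21. The d23 values were tightly grouped and the groups did not overlap (-1.46 ± 0.16, limma adjusted p = 0.000229). Ldhb had 12.3, 13.03, 9.06 and 12.2 RPKM in SI d23, against 63.9, 72.6, 24.7 and 50.8 RPKM in SI d21. Clone 3 had the lowest value at both times, and its d21 value was still above each d23 value (-2.001 ± 0.30, limma adjusted p = 0.000876). Ldha had 125, 157, 155 and 145 RPKM in SI d23, below all of the d21 values given above (-0.81 ± 0.15, limma adjusted p = 0.00251). Pdk1 fell too (-0.94 ± 0.24). Of the glucose transporters, Slc2a1 had 119 ± 41.1 RPKM in SI d23 and 102 ± 35.6 RPKM in SI d21 (mean ± SD, n = 4) and was not called. Slc2a3 had 51.5 ± 36.7 RPKM in SI d23 and 116 ± 55.5 RPKM in SI d21 and was called only with clones paired (-1.52 ± 0.33, limma adjusted p = 0.00799).

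Among the hypoxia members, Vegfa had 35.3, 39.1, 32 and 49.6 RPKM in SI d23, against 12.7 to 15.6 RPKM in SI d21. Its rise of 1.42 ± 0.14 had the smallest p of the members (limma adjusted p = 0.000177). P4ha1 had 80.9, 90.5, 101 and 79.3 RPKM in SI d23, against 54.6, 53.8, 42.7 and 41.5 RPKM in SI d21, with no overlap (0.86 ± 0.14, limma adjusted p = 0.00101). P4ha2 had 21.3, 23.97, 31.2 and 21.7 RPKM in SI d23 and 10.2, 12.3, 15.3 and 9.87 RPKM in SI d21. It rose by 0.99 ± 0.17 (limma adjusted p = 0.00157). Hif1a rose by 1.30 ± 0.26, while Ankrd37 and Egln3 fell (-1.87 ± 0.40 and -1.67 ± 0.58). Of 12 fibroblast markers 10 rose and none fell, and all 8 proliferation markers fell. The fibroblast sum was 5090 to 8692 RPKM in SI d23 and 1307 to 3111 in SI d21. The pluripotent sum was 8.08 to 125 RPKM in SI d23, against 548 to 1304 in SI d21, with 2 of 5 tested markers called lower, and epithelial and macrophage markers gave 3 of 6 and 4 of 5 tested as higher. The part of these cell types in the changes was not tested.

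In SC clones no member was called at d23 relative to d21, where 3.79% of genes were called, with 5 members at an unadjusted limma p under 0.05, as were 19.4% of genes. Calls over all genes were 118 higher and 336 lower, and 163 and 277 after rescaling. One fit over all libraries called 3 members higher, where 15.9% of genes were called, and so did the fit with clones paired, where 13.4% were. The 3 were P4ha1 (paired 0.73 ± 0.11, limma adjusted p = 0.0148), P4ha2 (paired 0.61 ± 0.11, limma adjusted p = 0.0208) and Eno3 (paired 0.72 ± 0.16, limma adjusted p = 0.0359). P4ha1 had 52.1, 65.5, 58.3 and 45.9 RPKM in SC d23, against 35.1, 42.9, 32.4 and 23.5 RPKM in SC d21. Each SC clone was higher at d23 than at d21. P4ha2 had 15.8, 19.1, 12.7 and 11.6 RPKM in SC d23 and 9.63, 10.4, 9.46 and 7.38 RPKM in SC d21, and Eno3 had 7.25, 10.6, 8.04 and 8.59 RPKM in SC d23 and 3.87, 4.16, 4.86 and 6.75 RPKM in SC d21. Neither pair of groups overlapped. Leaving out the d21 library of SC clone 4 gave 1 call in the unpaired test.

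Whether the d23 against d21 change differed between SC and SI was tested as an interaction. No member was called, where 0.00% of 12714 genes were called, with 14 members at an unadjusted limma p under 0.05, as were 25.5% of genes. The difference was above 0, that is, in favour of SC, for 23 of 24 glycolysis members, and the median was 0.55 over the members and 0.04 over all genes. With clones paired, 9 members were called higher and 2 lower, where 23.2% of genes were called, and 1 fit over all libraries gave 10 and 1, where 14.7% were. The paired calls included Slc16a1 (1.29 ± 0.26, limma adjusted p = 0.0327), Ldhb (2.56 ± 0.53, limma adjusted p = 0.0327), Ldha, Gpi1, Eno1, Slc2a3, Egln3, Ndufa4l2 and Ddit4 as higher. Hif1a (-1.07 ± 0.27, limma adjusted p = 0.0344) and Vegfa (-0.82 ± 0.22, limma adjusted p = 0.0356) were lower. Slc16a1 had 24.2, 19.5, 24.7 and 27.7 RPKM in SC d21, with a narrow spread. Hif1a had 32.8, 28.2, 25.6 and 29.02 RPKM in SC d21 and 20.2, 20.9, 47.2 and 26.2 RPKM in SI d21. Ddit4 had 74.1, 62.6, 147 and 105 RPKM in SC d23 and 48.7, 58.2, 107 and 80.8 RPKM in SC d21; in SI clones it had 61.9, 82.1, 33.6 and 60.6 RPKM at d23 and 73.2, 93.02, 34.7 and 66.6 RPKM at d21 (paired 0.53 ± 0.14). Eno1 had 42.6, 24.7, 48.8 and 47.3 RPKM in SC d23 and 39.2, 34.6, 39.6 and 36.02 RPKM in SC d21; in SI clones it had 19.6, 26.7, 19.6 and 21.1 RPKM at d23 and 32.3, 44.2, 28.4 and 31.4 RPKM at d21 (paired 0.70 ± 0.19). Without the d23 library of SC clone 2 the unpaired interaction called 14 members, and without the d21 library of SI clone 3 it called 9.

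**Figure D4:**
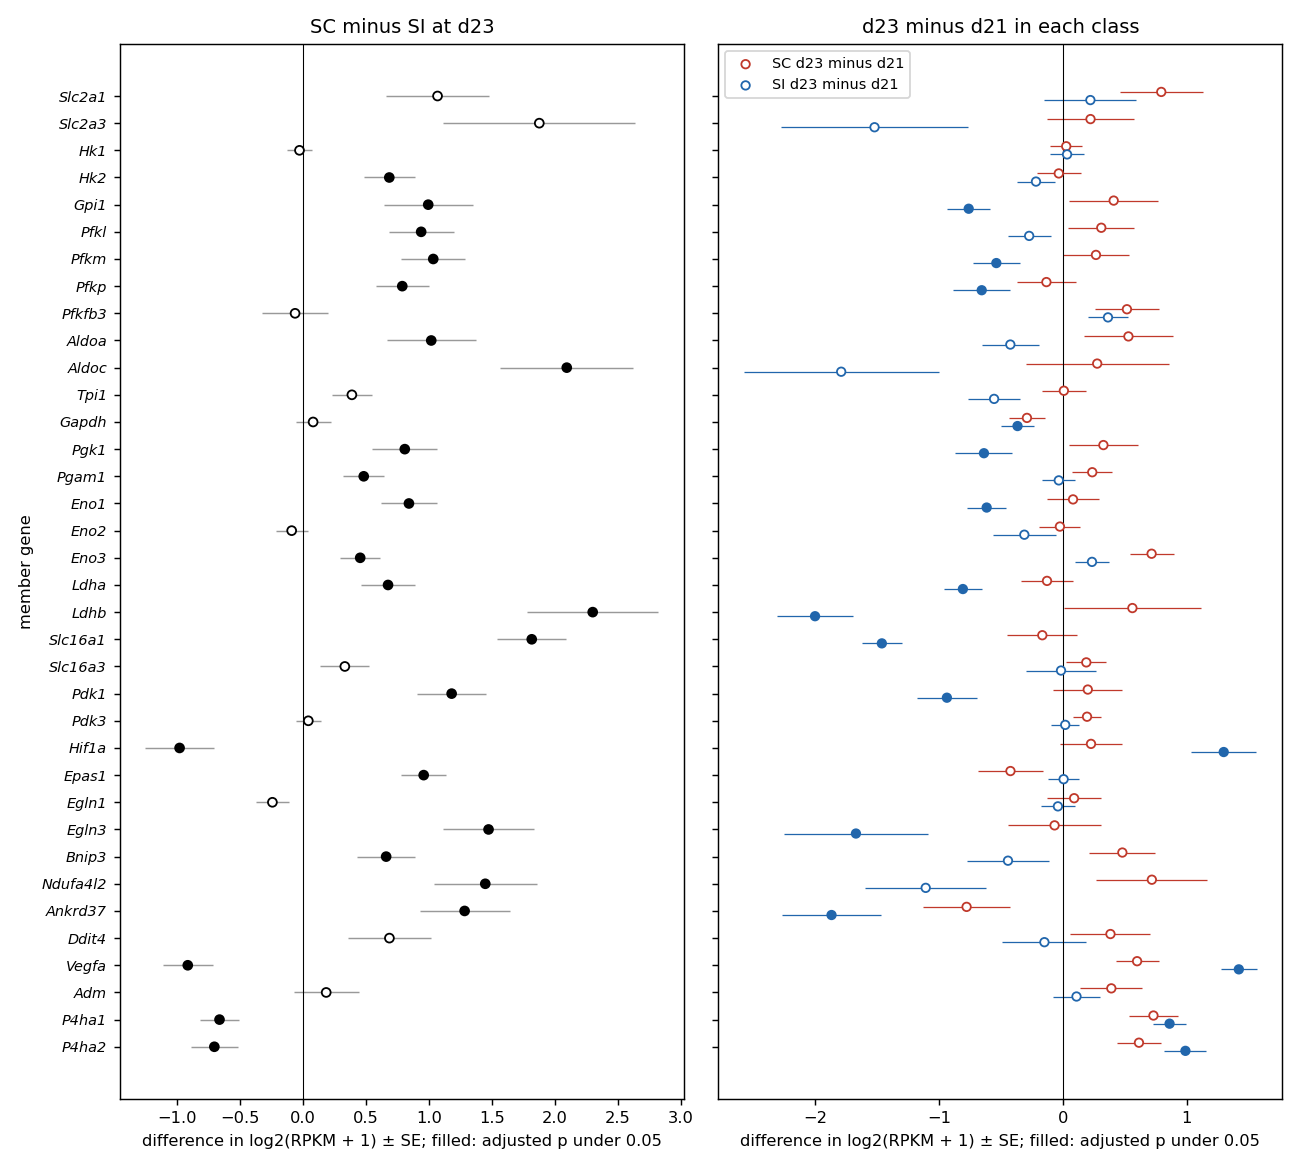
Log2 difference of each of the 36 members, with its SE as the error bar, for SC minus SI at d23 and for d23 minus d21 in each class; filled points have a limma adjusted p under 0.05. In SI clones 4 members were called higher and 12 lower at d23 relative to d21, in SC clones none was called, and 20 members were called higher and 4 lower in SC than in SI at d23.

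Set against each other at the same time, the classes had called members at d23 and d27, and none at d14, d21 and d22. At d14, 0 of 35 members tested were called by limma, where 0.00% of genes were called. At an unadjusted p under 0.05 there were 0 members too, against 1.44% of genes, and 1 fit over all libraries called 0 members and 0.00% of genes. At d21 none of 36 was called, where 0.00% of genes were called, with 4 members at an unadjusted limma p under 0.05, as were 13.4% of genes. One fit over all libraries called Epas1 as higher, where 0.689% of genes were called, and the test without the d21 library of SC clone 2 called 1 member. Epas1 had 10.2, 7.04, 10.2 and 16.8 RPKM in SC d21, against 3.84, 2.89, 3.11 and 3.96 RPKM in SI d21, with no overlap. At d22 none was called by limma, where 0.00% of genes were called, but 19 members had an unadjusted p under 0.05, as had 34.8% of genes. One fit over all libraries called 11 higher and 5 lower, where 29.2% of genes were called. Without the d22 library of SC clone 2, 16 members were called.

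At d23, 20 members were higher in SC than in SI clones and 4 lower, where 42.5% of 11805 genes were called, 23.0% higher and 19.5% lower. The glycolysis members gave 15 higher and none lower of 24, with a median of 0.80, and the hypoxia members 5 higher and 4 lower of 12. The median was -0.01 over all genes. The adjusted p-values lay close under the threshold, from 0.0222 to 0.0496. The count of 24 was 28 without SC clone 2, 9 without SI clone 1, and 0 when any 1 of the other 6 libraries was left out.

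Slc16a1 had 22.9, 10.97, 29.2 and 26.8 RPKM in SC d23, against 6.07, 5.15, 5.14 and 4.81 RPKM in SI d23. Even SC clone 2, the lowest of its class, was above all SI clones, and Slc16a1 was higher by 1.82 ± 0.27 (limma adjusted p = 0.0222). Ldhb had 52.9, 19.01, 101 and 131 RPKM in SC d23, against 12.3, 13.03, 9.06 and 12.2 RPKM in SI d23. SC clone 2 was again nearest to the SI range without entering it (2.30 ± 0.52, limma adjusted p = 0.0232). Pdk1 had 12.9, 5.45, 13.2 and 15.7 RPKM in SC d23, against 4.12, 4.39, 4.68 and 4.14 RPKM in SI d23, and was higher by 1.18 ± 0.27 (limma adjusted p = 0.0239). All 3 types of phosphofructokinase, which commits sugar to glycolysis, were higher: Pfkm by 1.04 ± 0.26, Pfkl by 0.94 ± 0.26 and Pfkp by 0.79 ± 0.21. Aldoc (2.10 ± 0.53) and Aldoa (1.02 ± 0.35), the aldolases, and Hk2 (0.69 ± 0.20) were higher as well. The glucose transporters were not called. Slc2a1 had 161, 148, 390.4 and 335 RPKM in SC d23, against 157, 124, 60.7 and 133 RPKM in SI d23 (1.07 ± 0.41, limma adjusted p = 0.0599). Pfkfb3, which makes the activator of phosphofructokinase, had 7.68 ± 3.28 RPKM in SC d23 and 7.76 ± 1.73 RPKM in SI d23 and was not called.

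Of the HIF alpha subunits, Epas1 had 6.11, 6.23, 8.27 and 10.7 RPKM in SC d23, against 3.78, 2.85, 3.78 and 3.43 RPKM in SI d23. The SC clones were all above the SI clones (0.96 ± 0.18, limma adjusted p = 0.0222). Hif1a ran the other way, with 37.5, 55.5, 27.8 and 22.6 RPKM in SC d23 and 63.5, 61.6, 89.1 and 60.1 RPKM in SI d23 (-0.98 ± 0.27, limma adjusted p = 0.0295). Vegfa had 17.9, 26.4, 21.9 and 15.4 RPKM in SC d23, against 35.3, 39.1, 32 and 49.6 RPKM in SI d23. Each SC clone was lower than each SI clone (-0.91 ± 0.20, limma adjusted p = 0.0227). P4ha1 had 52.1, 65.5, 58.3 and 45.9 RPKM in SC d23, against 80.9, 90.5, 101 and 79.3 RPKM in SI d23, and was lower (-0.66 ± 0.15, limma adjusted p = 0.0235), as was P4ha2 (-0.70 ± 0.19). The targets Ankrd37 (1.28 ± 0.36), Ndufa4l2 (1.45 ± 0.41) and Bnip3 (0.66 ± 0.23) were higher in SC, although SC clone 2 lay within the SI range for each. Egln3 was higher without overlap (1.48 ± 0.36), and Egln1, the housekeeping prolyl hydroxylase, was not called.

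All 8 pluripotent and all 8 proliferation markers were higher in SC than in SI at d23, and 9 of 12 fibroblast markers were lower. The pluripotent sum was 297 to 1512 RPKM in SC d23 and 8.08 to 125 in SI d23, and the proliferation sum 137 to 586 RPKM in SC d23 and 26.2 to 84.0 in SI d23. The fibroblast sum was 995 to 4471 RPKM in SC d23 and 5090 to 8692 in SI d23. Of macrophage markers 3 of 5 tested were lower in SC, with sums of 75.4 to 148 RPKM in SC d23 and 170 to 320.3 in SI d23. None of 6 epithelial markers was called, with sums of 412 to 1320 RPKM in SC d23 and 117 to 2275 in SI d23. None of these markers was at 0 in all libraries of either group. Their part in the difference between the members was not tested.

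When doxycycline was kept on to d27, most members stood lower than at d21 in both classes, but the unpaired test did not call them. In SC clones 32 of 36 members were below their d21 level at d27, with a median of -0.38 over the members and -0.03 over all genes. None was called by limma, where 0.00847% of genes were called, with 22 members at an unadjusted p under 0.05, as were 11.5% of genes. In 1 fit over all libraries none was called, where 0.0593% of genes were called. With clones paired 20 fell and 1 rose, where 11.3% of genes were called. Ndufa4l2 had 2.78, 4.45, 4.81 and 2.31 RPKM in SC d27, against 7.33, 14.1, 16.6 and 6.71 RPKM in SC d21. Each d27 library was below each d21 library (paired -1.36 ± 0.09, limma adjusted p = 0.00627). Egln3 had 19.9, 20.4, 15.1 and 7.71 RPKM in SC d27 and 34.7, 57.6, 42.9 and 18.8 RPKM in SC d21, lower in each clone, with overlap between groups (paired -1.21 ± 0.12, limma adjusted p = 0.0192). Ankrd37, Ddit4, Pfkp and Hk1, a hexokinase, were lower too. Ankrd37 had 4.54, 3.11, 4.74 and 3.69 RPKM in SC d27, against 8.06, 7.92, 7.64 and 7.28 RPKM in SC d21, with no overlap (paired -0.81 ± 0.10, limma adjusted p = 0.0290). Ddit4 had 32.3, 24.6, 45.8 and 30.8 RPKM in SC d27, against 48.7, 58.2, 107 and 80.8 RPKM in SC d21, with no overlap (paired -1.09 ± 0.13, limma adjusted p = 0.0290). Pfkp had 12.9, 18.5, 14.6 and 14.4 RPKM in SC d27, against 16.8, 27.8, 23.1 and 23.2 RPKM in SC d21, with overlap (paired -0.55 ± 0.07, limma adjusted p = 0.0290). Hk1 had 9.45, 11.05, 10.2 and 9.22 RPKM in SC d27, against 11.97, 16.1, 15.5 and 13.03 RPKM in SC d21, with no overlap (paired -0.46 ± 0.06, limma adjusted p = 0.0315). Bnip3 was lower by a paired difference of -0.75, and Slc16a1 was the 1 member that was higher (0.30 ± 0.07). In SI clones 31 of 35 members tested were below their d21 level at d27. None was called, where 0.00% of genes were called, with 23 members at an unadjusted limma p under 0.05, as were 30.8% of genes, and a median of -0.59, against 0.01 over all genes. The paired fit called 0 members and 0.00% of genes, and 1 fit over all libraries called 16 members lower, where 11.8% of genes were called. Leaving out the d21 library of SI clone 3 gave 28 calls, a count without the share of all genes beside it.

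Between the classes at d27, 2 members were called higher in SC, where 0.634% of genes were called, with 17 members at an unadjusted limma p under 0.05, as were 23.1% of genes. Epas1 had 7.86, 6.18, 8.62 and 12.7 RPKM in SC d27, against 1.73, 2.41, 1.27 and 1.65 RPKM in SI d27. The classes were far apart, with the lowest SC clone above every SI clone (1.81 ± 0.20, limma adjusted p = 0.0392). Aldoc had 1.74, 2.45, 3.64 and 3.50 RPKM in SC d27, against 0.35, 0.39, 0.58 and 0.54 RPKM in SI d27, where no clone reached 1 RPKM (1.36 ± 0.17, limma adjusted p = 0.0392). Aldoc could be tested only because its SC d27 values were high, so this p-value gives no support. Without SC clone 2 there were 12 calls, and without any 1 of the other 7 libraries none.

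SC iPS cells, 6 days after withdrawal, were set against SC clones that had kept the drug to d27. Bnip3 alone was called, where 1.62% of genes were called, with 6 members at an unadjusted limma p under 0.05, as were 29.9% of genes. It had 21.6, 16.8, 22.98 and 19.6 RPKM in SC iPS cells, against 11.96, 10.6, 13.2 and 11.5 RPKM in SC d27. Each iPS library was above each d27 library (0.72 ± 0.12, limma adjusted p = 0.0379). With clones paired 4 were called, where 12% of genes were called: Bnip3, Pdk1 (0.62 ± 0.12), Eno3 (0.60 ± 0.10) and Pfkl (0.42 ± 0.10). Calls over all genes were 49 higher and 140 lower, and 79 and 124 after rescaling. The count was 11 without the iPS library of SC clone 2, 3 without the d27 library of SC clone 4, and 0 without any 1 of the other 6 libraries.

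Relative to feeders, iPS cells had 15 members higher and 8 lower, where 79.9% of genes were called, so the members' share was not above the background. Slc2a3 had 92.5, 44.5, 119.6 and 89.8 RPKM in SC iPS cells, against 0.65, 0.60 and 0.59 RPKM in feeders. The transporter was nearly silent in fibroblasts, and the difference was 5.68 ± 0.29 (limma adjusted p = 1.49e-06). Slc2a3 could be tested only because its iPS values were high, so this p-value gives no support. Epas1 had 9.75, 9.32, 9.35 and 7.61 RPKM in iPS cells and 3.39, 3.27 and 3.83 RPKM in feeders (1.15 ± 0.11, limma adjusted p = 2.05e-05). Slc16a1 had 29.2, 19.1, 36.6 and 33.7 RPKM in iPS cells and 8.05, 6.42 and 7.65 RPKM in feeders (1.84 ± 0.21, limma adjusted p = 5.29e-05). These 3 members were higher in every iPS library than in any feeder. On the lower side, Vegfa had 15.4, 19.2, 11.5 and 11.9 RPKM in iPS cells and 39.6, 41.2 and 40.4 RPKM in feeders (-1.45 ± 0.17, limma adjusted p = 6.32e-05). P4ha1 had 21.3, 32.4, 20.2 and 18.4 RPKM in iPS cells and 70.3, 66.9 and 71.7 RPKM in feeders (-1.59 ± 0.18, limma adjusted p = 5.30e-05), and P4ha2 had 6.82, 12.5, 6.93 and 7.28 RPKM in iPS cells and 27.6, 29.01 and 30.1 RPKM in feeders (-1.71 ± 0.19). The 3 were lower in every iPS library than in any feeder. Adm (-1.77 ± 0.25) and Hif1a (-1.06 ± 0.20) were lower too, and Ldhb (2.18 ± 0.34) and Hk2 (1.10 ± 0.17) higher. In these cells 8 of 8 pluripotent and 8 of 8 proliferation markers were higher and 10 of 12 fibroblast markers lower, and their part was not tested.

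Already at d14 the 8 clones had Slc2a3 at 16.2 to 62.8 RPKM, against the feeder values given above (4.36 ± 0.40, limma adjusted p = 5.38e-05). Here too Slc2a3 could be tested only through the clones, so its p-value gives no support. In all, 7 members were higher and 4 lower of 35 tested in d14 clones relative to feeders, where 63.8% of genes were called, a share of members under the background. Slc16a1 had 16.3, 22.7, 20.5 and 16.6 RPKM in SC d14 and 20.5, 13.6, 14.1 and 22.8 RPKM in SI d14, all above feeders (1.19 ± 0.16). The other members with the smallest adjusted p were Eno3, Gapdh, Ankrd37 and Ddit4. Eno3 had 4.18, 3.51, 4.48 and 4.95 RPKM in SC d14 and 4.61, 4.91, 6.12 and 4.46 RPKM in SI d14, against 7.37, 7.09 and 6.75 RPKM in feeders (-0.52 ± 0.11, limma adjusted p = 0.00322). Gapdh had 3.65, 3.16, 2.89 and 3.01 RPKM in SC d14 and 3.33, 2.76, 2.63 and 4.25 RPKM in SI d14, against 1.8, 2.09 and 2.11 RPKM in feeders (0.48 ± 0.11, limma adjusted p = 0.00425). Ankrd37 had 2.26, 1.79, 2.14 and 1.78 RPKM in SC d14 and 2.81, 1.46, 1.54 and 2.24 RPKM in SI d14, against 1.21, 0.83 and 1.12 RPKM in feeders (0.54 ± 0.13, limma adjusted p = 0.00594). Ddit4 had 32.3, 30.4, 34.7 and 39.01 RPKM in SC d14 and 29.9, 33.3, 38.2 and 28.1 RPKM in SI d14, against 41.6, 43.6 and 48.1 RPKM in feeders (-0.41 ± 0.10, limma adjusted p = 0.00673). By library Slc2a3 had 41.2, 38.5, 48.6 and 18.2 RPKM in SC d14 and 62.8, 17.7, 16.2 and 43.9 RPKM in SI d14. After Slc2a3 and Slc16a1, the called members differed less, up to 0.55 on the higher side, while Adm (-1.35 ± 0.50) and Vegfa (-0.78 ± 0.30) were the 2 furthest below feeders. This split depended on scaling. The median of all genes was 0.12 as deposited and -0.02 after rescaling, calls over all genes went to 3823 higher and 4111 lower, against 5003 and 2710 as deposited, and the members then gave 5 higher and 14 lower. The count was 6 without feeder library 1 or feeder library 2 and 7 without feeder library 3. In d14 clones all 6 tested pluripotent, all 6 epithelial and all 8 proliferation markers were higher than in feeders, as was the 1 endothelial marker tested, and 8 of 12 fibroblast and 2 of 5 tested macrophage markers were lower. The epithelial sum was 178 to 362 RPKM in SC d14 and 107 to 409.9 in SI d14, against 5.42 to 5.51 in feeders. The part of these cell types was not tested.

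SI clones at d23 differed from feeders in 7 members higher and 4 lower, where 35.8% of genes were called, a share of members near the background. Rescaling gave 6 and 6, with 2112 higher and 2296 lower over all genes, against 2492 and 1715 as deposited. Slc2a3 had 92.6, 41.9, 6.14 and 65.4 RPKM in SI d23, with clone 3 the lowest, and all were above feeders (4.52 ± 0.80, limma adjusted p = 0.00947). Slc2a3 could again be tested only through the clones, so its p-value gives no support. Ndufa4l2 had 7.12, 8.44, 4.16 and 4.66 RPKM in SI d23, against 1.88, 1.84 and 2.39 RPKM in feeders (1.18 ± 0.22). Adm had 9.39, 9.29, 16.8 and 11.3 RPKM in SI d23, against 38.1, 36.04 and 38.3 RPKM in feeders, lower in every clone (-1.64 ± 0.19, limma adjusted p = 0.00317). Eno2, the neuronal enolase, Pfkp and Ldha were called too. Eno2 had 4.86, 4.98, 4.42 and 4.54 RPKM in SI d23, against 2.90, 3.29 and 3.46 RPKM in feeders, with no overlap (0.44 ± 0.08, limma adjusted p = 0.0109). Pfkp had 11.5, 12.4, 9.84 and 11.7 RPKM in SI d23, against 8.10, 7.93 and 7.98 RPKM in feeders, with no overlap (0.45 ± 0.08, limma adjusted p = 0.0112). Ldha had 125, 157, 155 and 145 RPKM in SI d23, against 186, 193 and 201 RPKM in feeders, with no overlap (-0.41 ± 0.10, limma adjusted p = 0.0189). Gpi1 (-0.37 ± 0.12) and Slc16a1 (-0.41 ± 0.10) were lower. Hif1a, at 68.6 ± 13.7 RPKM in SI d23 and 68.9 ± 6.94 RPKM in feeders, and Vegfa, at 39.02 ± 7.66 RPKM in SI d23 and 40.4 ± 0.760 RPKM in feeders, were not called. The count was 17 without SI clone 3, 7 without SI clone 2 or 4, and 5, 1 and 4 without feeder libraries 1, 2 and 3 in turn. The fibroblast sum was 5090 to 8692 RPKM in SI d23 and 6981 to 7494 in feeders, with 1 of 12 markers higher. All 6 epithelial markers were higher, with sums of 117 to 2275 RPKM in SI d23 and 5.42 to 5.51 in feeders, as were 2 of 3 tested pluripotent markers. No macrophage or proliferation marker was called. The part of these cell types was not tested.

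Other genes of the same pathways, 28 of glycolysis and pyruvate handling and 30 of the hypoxia response, showed calls in both directions. In SC relative to SI at d23, where 42.5% of all genes were called, 1 of 16 tested glycolysis and pyruvate genes was higher and 2 lower. That share was under the background. The median of these genes was 0.14, against 0.69 over the 36 members and -0.01 over all genes. Pdhb, a subunit of pyruvate dehydrogenase, was higher (0.78 ± 0.21), and Pfkfb4, a relative of Pfkfb3, and Bpgm, which makes bisphosphoglycerate, were lower (-0.91 ± 0.24 and -0.87 ± 0.26). Of 30 hypoxia genes 7 were higher and 6 lower, among them Tfrc, the transferrin receptor (1.63 ± 0.24), and Lox, a collagen cross-linking enzyme that is also in the fibroblast marker list (-1.70 ± 0.37). In SI at d23 relative to d21 the counts were 5 higher and 4 lower of 15, and 10 higher and 7 lower of 29. Both shares were near the background, since 54.6% of all genes were called. Cited2, a HIF-induced competitor for coactivators, rose by 2.78 ± 0.21. Pdha1, the catalytic subunit of pyruvate dehydrogenase, changed by -1.48 ± 0.18, a fall. In SC at d23 relative to d21, where no member was called, Pdha1 fell too (-1.03 ± 0.19) and Cited2 rose (1.41 ± 0.32). The counts there were 1 higher and 2 lower of 19, and 2 higher and none lower of 29, where 3.79% of all genes were called. In SC at d21 relative to d14 there were 3 higher and 1 lower of 15, and 3 higher and 5 lower of 26, with Lox (-1.58 ± 0.23) among the falls. Both shares were under the background, since 42.5% of all genes were called.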

How the data were processed

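The libraries were 24 of SC clones, 20 of SI clones and 3 of feeders. RNA was purified on Qiagen columns, treated with DNase and built into TruSeq libraries for Illumina sequencing, per the labels' protocols. The authors deposited 1 RPKM value per gene and library, to 2 decimals, made by scaling reads to gene length and library size. They do not name the unit, which was read from the values themselves: RPKM times exon length (GENCODE M21, 20750 genes, lengths in gigabases) added up to 0.788 to 0.998 a library, close to the 1 that RPKM over all reads would give. The submitters' processing notes name CASAVA 1.8 and mm9 and give no role for either. Aligner, annotation, read length and the treatment of reads that match several genes: not given in the sources used here. Days with and without doxycycline follow each library's characteristics, since the treatment text describes d22 and d23 in another way.

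From these values log2(RPKM + 1) was computed and every comparison was fitted separately with limma 3.58.1 under R 4.3.3 (lmFit; eBayes with trend), using only the libraries compared. A gene was tested if it reached 1 RPKM in a number of libraries at least equal to the size of the smaller group. Members under 1 RPKM throughout a group passed only through the other group, and their p-values there give no support. These were Aldoc and Slc2a3 in feeders, and Aldoc in SC d14 and SI d27. Two-sided p-values were adjusted over all genes tested (Benjamini-Hochberg, threshold 0.05). The fit was tested on simulated data. Aldoc was under the filter, and so not tested, in SC against SI at d14, SI d27 against d21 and d14 clones against feeders. Python 3.11.15 with numpy 2.4.6 and pandas 2.3.3 made the tables, and matplotlib 3.10.9 drew the figures. Depth was read from 558 genes of up to 600 bases.

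The members and the gene and marker lists were chosen with earlier results of these data known. There were 16 planned comparisons, and 4 more (d22 against d21 and d23 against d22 in each class) were added after values had been seen. In each comparison up to 6 called members with the smallest adjusted p, or with clones paired where none was called, are given by library, and 12 members (Hk2, Slc2a1, Slc2a3, Ldha, Ldhb, Pdk1, Pfkfb3, Bnip3, Vegfa, Hif1a, Epas1 and Egln3) at least as group means. Other pathway genes were given as counts with up to 3 called examples. One called example is not reported here.

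Clone names in the titles pair the times of a class, since the same clone was sampled again. Libraries of the same clone deviated together, with correlations of 0.17 to 0.91, except in SI d21 against d14 (-0.35 to 0.72). Alternatives tried were no filter, a pseudocount of 0.1, rescaling by the median ratio, 1 fit over all libraries, a replicate block and leaving out each library in turn. The fit over all libraries has no term for the clone. It treats libraries of the same clone at different times as independent, so its p-values can be too small.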

Additional observations from a re-analysis of the deposited data

Results flagged for a closer look

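Of 429 groups of 4 libraries examined (36 members and 3 mean levels in 11 groups), 24 had a library whose distance from the nearest of the others exceeded Dixon's critical share of the range of the group, and chance alone gives this in about 1 of 20 groups. The 24 are thus near the count that chance alone would give, so a single flag means little. SI clone 3 accounted for 11 of the 24 and SC clone 2 for 7, and the 6 other clones for 1 each. These are the clones whose marker sums stood apart in the report.

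At d22 SI clone 3 stood apart in 6 members. It had 0.92 RPKM of Ankrd37, against 2.08 to 2.31 in the other 3 clones, and 8.42 RPKM of Ldhb, against 16.6 to 17.1. It had more of Hif1a (58.4 RPKM, against 35.4 to 39.1), P4ha1 (62.9, against 40.7 to 42.7), P4ha2 (28.0, against 13.6 to 14.2) and Pfkl (31.8, against 26.03 to 26.96). At d23 it had 89.1 RPKM of Hif1a, against 60.1 to 63.5, and a glycolysis mean of 4.04 on the log2 scale, against 4.30 to 4.34. Its Slc2a1 was 48.8 RPKM at d21, against 119 to 122, and 68.9 RPKM at d14, against 60.3 to 60.8. At d27 its Ankrd37 was 3.36 RPKM, against 2.56 to 2.60.

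SC clone 2 stood low for Ldha at d23, with 153 RPKM against 256.3 to 273.8 in the other clones, and for Pgam1, a phosphoglycerate mutase, at d14 (14.8 RPKM, against 17.5 to 17.8), d23 (16.9, against 24.4 to 25.6) and as iPS cells (22.3, against 25.96 to 26.55). Its iPS library also had 12.6 RPKM of Pfkm, against 18.8 to 19.8, and more of Hif1a (48.6, against 27.0 to 29.9) and P4ha2 (12.5, against 6.82 to 7.28).

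The remaining libraries were SC clone 1 at d27 (Gpi1 at 29.4 RPKM, against 31.5 to 32.0), SI clone 2 at d22 (Pfkfb3 at 4.69, against 6.83 to 7.19), SI clone 4 at d27 (Pgk1 at 20.9, against 19.4 to 19.6), SI clone 1 at d14 (Pdk1 at 8.12, against 5.10 to 5.35), SC clone 4 at d14 (Egln1 at 23.4, against 17.0 to 17.8) and SC clone 3 at d23 (Adm at 21.2, against 10.2 to 11.7).

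The 36 members were compared by clone at d21 against d14, d22 against d21, d23 against d22, d23 against d21 and d27 against d21. In all these checks, every SC clone moved one way and every SI clone the other in 3 members, each at 1 step. How many of all genes do so was not counted, so the 3 have no background. Aldoc changed by 1.401 in SC and -0.38 in SI clones between d22 and d23 (means of log2 differences), a difference of 1.78, and Slc16a1 by 0.40 in SC and -0.51 in SI over the same day, a difference of 0.91. These differences between the classes were not tested. Ddit4 changed by 0.38 in SC and -0.15 in SI between d21 and d23, a difference of 0.53, which the interaction did not call (limma adjusted p = 0.488) and the interaction with clones paired did (limma adjusted p = 0.0353).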

How the results depend on the processing

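No called value changed sign under any alternative. Counts of called members follow, with the genes called of all genes tested in brackets. With the replicate block they were 8 for SC against SI at d23 (2373 of 11805) and 0 at d27 (0 of 11513). For SC d23 against d21 there were 3 (1600 of 11975), and for SC d27 against d21 21 (1330 of 11804). The class difference had 11 (2944 of 12714) and SC iPS against d27 had 4 (1399 of 11675). SC d22 against d21 had 23 (4456 of 11949) and SC d23 against d22 had 19 (1564 of 11994). SI d23 against d22 had 24 (5164 of 11692). The block changed the count of no other comparison by over 1.5 times. SC and SI clones of the same number share only that number: deviations of same-numbered libraries correlated at -0.76 to 0.27, and at no time did all 4 pairs correlate best with their own number. One fit over all libraries gave 1 call for SC against SI at d21 (81 of 11757) and 16 at d22 (3474 of 11880). At d27 it gave 1 (143 of 11513). SC d23 against d21 had 3 (1906 of 11975) and SI d21 against d14 had 13 (2208 of 11738). SI d27 against d21 had 16 (1372 of 11590) and the class difference 11 (1872 of 12714). SC iPS against d27 had 4 (2131 of 11675) and SI d23 against feeders 3 (2815 of 11741). SC d22 against d21 had 10 (1621 of 11949) and SC d23 against d22 had 15 (1350 of 11994). Without the filter the counts were 0 for SC against SI at d27 (0 of 19390) and 0 for SC iPS against d27 (60 of 19605). SI d23 against feeders had 7 (3815 of 19167), SC d22 against d21 had 1 (672 of 19547) and SI d23 against d22 had 2 (96 of 19357). Rescaling by the median ratio gave 19 for d14 clones against feeders (7934 of 12087) and 8 for SI d23 against d22 (271 of 11692). The pseudocount of 0.1 moved no count by over 1.5 times. The cause of these shifts was not tested.

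For fits with 1 library left out, the share of all genes called is not reported here, so these counts have no background. Leaving out 1 library at a time, the count for SC against SI ran from 0 to 0 at d14 and 0 to 1 at d21. The count ran from 0 to 16 at d22, 0 to 28 at d23 and 0 to 12 at d27. It ran from 18 to 24 for SC d21 against d14, 0 to 1 for SC d23 against d21, 0 to 0 for SC d27 against d21, 0 to 18 for SI d21 against d14, 11 to 22 for SI d23 against d21 and 0 to 28 for SI d27 against d21. It ran from 0 to 14 for the class difference, 0 to 11 for SC iPS against d27, 21 to 31 for SC iPS against feeders, 6 to 16 for d14 clones against feeders and 1 to 17 for SI d23 against feeders. For the added comparisons it ran from 0 to 5 for SC d22 against d21, 15 to 25 for SI d22 against d21, 0 to 3 for SC d23 against d22 and 0 to 19 for SI d23 against d22.

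Among 286 results for single genes, 3348 values under an alternative kept their direction and their side of the threshold, 165 passed the threshold only under the alternative, 210 passed it only as reported, and 87 that were not called, as reported or under the alternative, had the other sign. Depth limits the members little, since all but Aldoc, Slc2a3 and Ankrd37 stayed above 1 RPKM in every library, and 1 read in a 1 kb gene is at most 0.0375 RPKM.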
